A study of Rattus norvegicus with 12 samples.

Results

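The comparison described here is IC_vs._EV, that is, rat cortical neuroglial cultures left intact (intact control, IC) against the same kind of culture given extracellular vesicles of glial progenitor cells (EV-GPCs, group EV). It covers every protein-coding gene with a mean of at least 5 TPM over the 6 libraries of these groups. TPM (the transcript unit that sums to 1000000 in a library) is a length-corrected share of the RNA of a library. Rows that carried the same gene name were summed, after which 9575 of 28111 gene names met this rule. At the same level, 631 further names had no match in the RefSeq gene table and 43 belonged to genes of another type, and these were left out. Of the 9575 genes, 9570 also had at least 1 TPM in at least 3 libraries and were tested, and the other 5 (Ndufa1, Rbm39, Sccpdh, Sepw1 and LOC687780) were listed at 0 in 4 or 5 of the 6 libraries. The threshold fell between Nin, Foxo4 and Spsb2, with means of 5.0016 to 5.0045 TPM just inside it, and Fpgt, Lrch1 and Pex10, with means of 4.990 to 4.998 TPM just outside it.

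The cultures were prepared from the cortex of newborn Wistar rats, were exposed to cytosine arabinoside to limit dividing cells, and were taken at 10 days in vitro. The EV group received EV-GPCs at 10 µg/mL for 4 h, and the IC group received no addition. The vesicles were concentrated by ultracentrifugation from the medium of human glial progenitor cells, which had been differentiated from induced pluripotent stem cells of 1 donor line, so the donor species of the vesicles and the species of the cultures differ. Each group had 3 libraries, the labels do not say whether these came from separate animals or cultures, and the p-values therefore measure the spread between these libraries, which may be technical.

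Extracellular vesicles are membrane-bound particles that carry proteins, lipids and RNA between cells. Receptor signals that reach a neuron or an astrocyte are commonly read within hours as transcripts of immediate early factors, of the feedback inhibitors of the ERK cascade and of targets of STAT3. In astrocytes, STAT3 is known to control a set of structural, surface and matrix genes that are raised around injuries, whereas neurons answer receptor and calcium signals with transcripts such as Fos and Vgf.

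The labelled culture type was checked against markers of its cells. All 15 neuronal markers were among the genes studied, with sums of 4176 to 4319 TPM in IC and 3980 to 4382 TPM in EV, and none of them passed a criterion of difference. Of the 12 astrocyte markers 11 were among the genes studied, with sums of 1533 to 1956 TPM in IC and 1794 to 2292 TPM in EV, and without Gfap the sums were 1405 to 1871 TPM and 1432 to 1675 TPM. The 7 markers of oligodendrocyte precursors summed to 237 to 268 TPM in IC and 228 to 288 TPM in EV. The 7 markers of radial glia and neural progenitors used summed to 115 to 189 TPM in IC and 108 to 163 TPM in EV, of which Sox2 gave 57.0 to 103 TPM in IC, and the 8 oligodendrocyte markers to 63.3 to 122 TPM and 62.3 to 99.2 TPM. Of the 5 progenitor markers among the genes studied Hes5 was lower, and the median of their log2 differences was -0.40, though it was -0.09 without IC library 2 and -0.56 without IC library 3. The 12 microglial markers were each under 1 TPM on average, 3 of them were listed at 0 in all 6 libraries, and together they summed to 0.425 to 3.41 TPM in IC and 0.594 to 2.18 TPM in EV. The 7 endothelial markers used summed to at most 1.04 TPM in any library. In bulk RNA, fewer cells of a type and less RNA per cell cannot be told apart.

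Each library correlated more closely with a library of the other group than with the least similar library of its own group. Ribosomal protein genes held 9.27% of the TPM in IC library 2 and 8.48% in EV library 1, against 4.42 to 5.73% in the other 4 libraries. IC library 2 correlated with EV library 1 (r = 0.981 over the genes studied), as did IC library 3 with EV library 3 (r = 0.981), while the lowest correlation of a library within its own group was 0.925 to 0.954. The study's supplement names a day covariate for its clustering of the libraries, the labels give no day for a library, and day was therefore not fitted. The difference in ribosomal protein share crossed the groups, and its values with and without these libraries are given beside the counts below. The genes studied held 64.0 to 78.0% of the TPM of a library. The files give no read numbers, so the depth behind each value is unknown, and a value of 0 is given as listed at 0.

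Few protein-coding genes differed between EV and IC, and most of those that did were higher after the vesicles. At an FDR under 0.05 in limma, 8 genes rose (0.0836% of the 9570) and 0 fell (0%). Only 4 of these 8, and no other gene studied, passed the FDR when the test had no filter on level or was limited to names with a mean of at least 5 TPM. Among all 12754 gene names tested, the corresponding shares were 0.102% (13 names) and 0.0392% (5 names). At an unadjusted p under 0.05 the count was 199 of the 9570 genes and 360 of all names. A wider criterion, a fold change over 1.5 at an unadjusted p under 0.05, was met by 107 genes in the higher direction (1.12%) and by 17 in the lower direction (0.178%), beside 1.56% (199 names) and 0.588% (75 names) of all names tested. Genes that met only this wider criterion are called higher or lower here. The higher genes ran from 0.59 to 3.93 in log2 fold change with a median of 0.95, and 49 of them exceeded 1. Of the 17 lower genes, 16 ran from -0.94 to -0.59 with a median of -0.69, and the remaining gene (RGD1560398) was listed at 0 in 2 EV libraries, so that its fitted difference is not a measure of size.

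All 3 EV values lay above all 3 IC values in 264 of the 9570 genes (2.76%) and below them in 125 (1.31%), beside 3.24% (413 names) and 1.88% (240 names) of all names tested. Of the 107 higher genes 93 did not overlap, and of the 17 lower genes 13 did not overlap. The rule on level had a part in who could be counted, since 30 of the 107 higher genes had an IC mean under 5 TPM and 4 of the 17 lower genes had an EV mean under 5 TPM. A fold change over 1.5 without an unadjusted p under 0.05 was found in 24 further genes in the higher direction and 23 in the lower direction, among them genes listed at 0 in single libraries of both groups such as Npy.

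The counts moved with single libraries. Without IC library 2 there were 145 higher and 24 lower genes, and without EV library 1 there were 158 higher and 97 lower genes. The lower count was also 34 without IC library 3 and 26 without EV library 2. No gene studied passed the FDR when IC library 1, IC library 3 or any EV library was left out, and 10 passed without IC library 2. With the ribosomal protein share as a covariate, a setting chosen after the libraries had been compared, 47 of the genes passed the FDR, 44 of them higher and 3 lower (Rgma, Slc9a3r1 and RGD1560398), and all 124 genes of the wider criterion met it again.

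**Figure D1:**
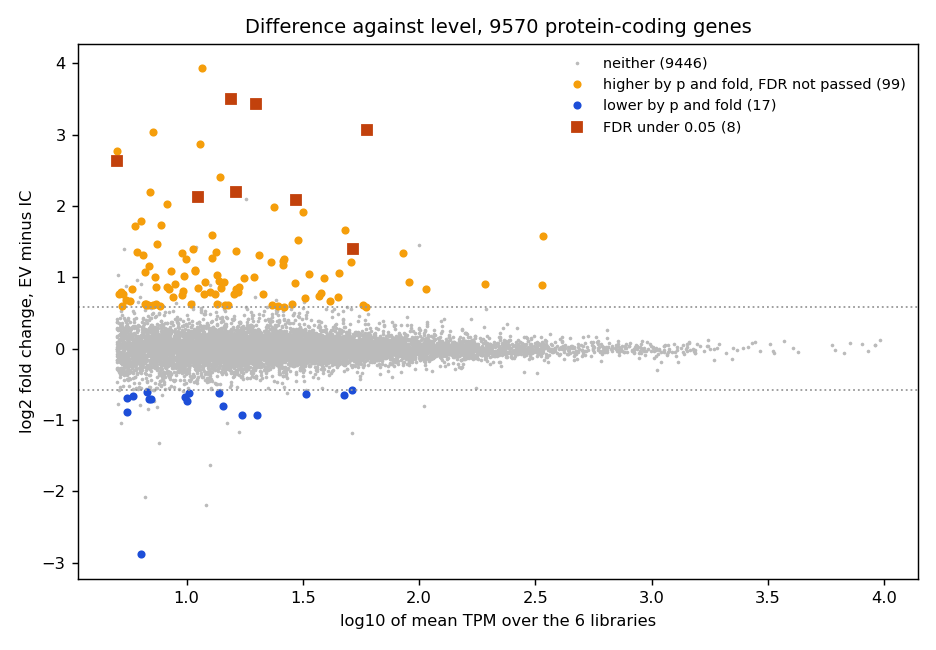
Each point is 1 of 9570 protein-coding genes, with the log10 of its mean TPM over the 6 libraries on the horizontal axis and its log2 fold change (EV minus IC) on the vertical axis. Squares are the 8 genes at an FDR under 0.05, filled circles the other genes past an unadjusted p under 0.05 and a fold change over 1.5 (dotted lines), and the 17 lower genes all lie under 100 TPM.

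Calls and intervals differed with level. Between 5 and 10 TPM, 2.30% of 1694 genes were higher and 17.6% had an interval inside 1.5-fold. Between 30 and 100 TPM, these shares were 0.610% and 56.5% of 2949 genes. At 1000 TPM or more, 0 of 83 genes met the criterion in either direction and 28.9% had an interval inside 1.5-fold, and the median SE of 0.288 was the largest of the 5 level classes. The median mean level was 13.4 TPM for the higher genes, 10.0 TPM for the lower genes and 25.3 TPM for all genes studied, and among the 1288 genes of at least 100 TPM, 4 were higher and 0 were lower.

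The 8 genes that passed the FDR were the surface receptors Tnfrsf12a, Cd44 and S1pr3, the secreted proteins Timp1, Spp1 and Vgf, and the transcription factors Fos and Stat3. Of these, Tnfrsf12a, Cd44, Spp1 and Fos had IC means under 5 TPM (1.76, 2.68, 0.700 and 3.58 TPM). They were among the genes studied only through their EV values. Tnfrsf12a, the receptor of the cytokine TWEAK, had 0.953, 3.10 and 1.22 TPM in the IC libraries and 29.3, 36.4 and 22.3 TPM in the EV libraries. The lowest EV value was well above the highest IC value, and the gene rose by 3.502 ± 0.32 (log2 fold change ± SE, limma adjusted p = 0.0154). Cd44, the hyaluronan receptor, had 4.87, 1.08 and 2.08 TPM in IC and 22.3, 49.98 and 39.0 TPM in EV. The groups did not overlap although the EV libraries differed among themselves, with a rise of 3.43 ± 0.42 (limma adjusted p = 0.0467). S1pr3, a receptor of sphingosine 1-phosphate, had 4.84, 7.10 and 3.59 TPM in IC and 21.2, 35.7 and 25.3 TPM in EV. It rose by 2.20 ± 0.26 (limma adjusted p = 0.0455).

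Timp1, an inhibitor of metalloproteinases, was the most abundant of the 8 after the vesicles. It had 9.24, 19.7 and 8.90 TPM in IC and 101, 125 and 95.4 TPM in EV, and rose by 3.06 ± 0.29 (limma adjusted p = 0.0154). IC library 2 was the highest control and still far below every EV library. Spp1, which encodes osteopontin, was barely present in the controls, with 0.799, 1.11 and 0.193 TPM, and had 8.97, 11.4 and 7.66 TPM in EV, a rise of 2.63 ± 0.27 (limma adjusted p = 0.0250). Vgf, the precursor of secreted neuropeptides (listed as LOC100909521), had 10.5, 10.2 and 11.02 TPM in IC and 54.6, 42.0 and 49.0 TPM in EV. Its controls were the tightest of the 8 genes, and it rose by 2.08 ± 0.18 (limma adjusted p = 0.0154).

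Fos, a subunit of the AP-1 factor and an immediate early gene, had 4.46, 4.05 and 2.24 TPM in IC and 21.8, 19.4 and 15.3 TPM in EV. It rose by 2.13 ± 0.24 (limma adjusted p = 0.0399). Stat3, the transcription factor downstream of cytokines of the gp130 family, had 28.9, 29.1 and 25.7 TPM in IC and 67.1, 83.9 and 76.9 TPM in EV. It showed the smallest change of the 8 and the highest control level, and rose by 1.40 ± 0.13 (limma adjusted p = 0.0154).

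**Figure D2:**
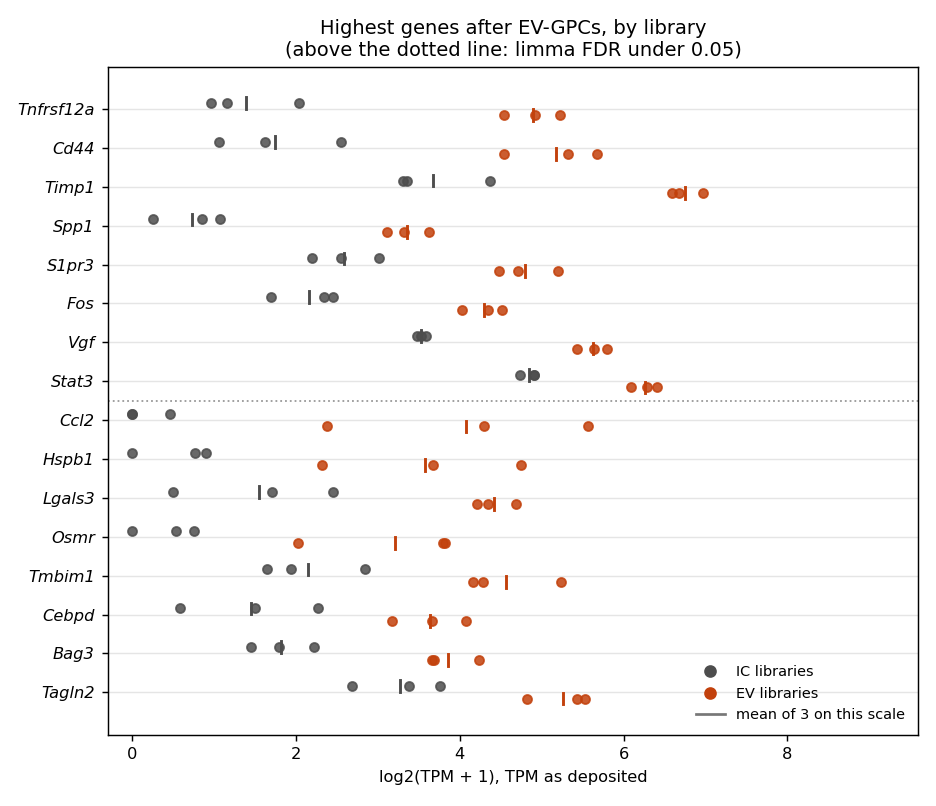
Points are single libraries of IC (grey) and EV (orange) on a log2(TPM + 1) scale for the 8 genes at an FDR under 0.05 (above the dotted line) and 8 further genes with the largest change among non-overlapping higher genes, with ticks at the mean of 3 libraries where none is listed at 0. In all 16 genes every EV library lies to the right of every IC library, while the EV libraries of Ccl2 and Hspb1 spread widely.

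The largest changes beyond these 8 genes met only the wider criterion and rested on low controls. Ccl2, a chemokine that attracts monocytes, had 0.378 TPM in IC library 1, was listed at 0 in IC libraries 2 and 3, and had 4.20, 46.3 and 18.7 TPM in EV (limma adjusted p = 0.182). Hspb1, a small heat shock protein, had 0.709 and 0.865 TPM in IC libraries 1 and 2, was listed at 0 in IC library 3, and had 25.9, 11.8 and 3.98 TPM in EV (limma adjusted p = 0.253). The EV libraries differed most in these genes, with EV library 2 the highest for Ccl2 and EV library 1 the highest for Hspb1. Osmr, the signalling subunit of the oncostatin M receptor, was listed at 0 in IC library 1, had 0.682 and 0.451 TPM in the other controls, and had 3.08, 13.1 and 12.9 TPM in EV (limma adjusted p = 0.185). Lgals3, which encodes the sugar-binding galectin-3, had 2.27, 4.47 and 0.410 TPM in IC and 24.8, 19.3 and 17.5 TPM in EV, a log2 difference of 2.87 ± 0.46 (limma adjusted p = 0.124).

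Tmbim1 had 2.14, 6.18 and 2.84 TPM in IC and 18.5, 36.7 and 16.8 TPM in EV (log2 difference 2.41 ± 0.39, limma adjusted p = 0.124). Bag3, a partner of the Hsp70 chaperones, had 2.47, 3.65 and 1.74 TPM in IC and 11.7, 17.8 and 11.9 TPM in EV (2.03 ± 0.26, limma adjusted p = 0.0578). Both genes were separated between the groups in all libraries, and Bag3 missed the FDR narrowly. Cebpd, a transcription factor induced by inflammatory cytokines, had 1.82, 3.81 and 0.502 TPM in IC and 15.8, 11.6 and 8.03 TPM in EV (limma adjusted p = 0.266). Tagln2, an actin-binding protein of the calponin family, had 9.42, 12.6 and 5.41 TPM in IC and 45.2, 42.3 and 27.2 TPM in EV (1.98 ± 0.30, limma adjusted p = 0.0962).

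Stretches of the promoters of 5 of these genes are shown because they hold the letters of short elements that AP-1, CREB, STAT and heat shock factors are known to bind. They were taken from RefSeq (GRCr8) on the strand of the gene and lie within the 250 bases before the start. Capitals mark an AP-1 pattern (TGANTCA), a cAMP response element (TGACGTCA), a STAT element (TTCNNNGAA) or a pair of heat shock units (GAANNTTC), each searched on both strands. N stands for any base, so the AP-1 pattern is a loose one and includes the TGATTCA of Osmr.
Vgf: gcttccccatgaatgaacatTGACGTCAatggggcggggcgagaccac
Tnfrsf12a: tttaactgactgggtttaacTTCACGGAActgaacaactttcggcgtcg
Osmr: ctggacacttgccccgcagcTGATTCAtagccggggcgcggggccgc
Bag3: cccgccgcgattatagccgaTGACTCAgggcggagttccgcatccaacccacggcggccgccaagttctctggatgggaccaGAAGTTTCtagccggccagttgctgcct
Hspb1: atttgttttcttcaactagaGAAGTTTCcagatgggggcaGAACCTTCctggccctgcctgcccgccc
The cAMP response element of Vgf began 90 bases before the start, and 3.27% of 7942 promoters of the genes studied and 1.70% of all 27457 rat promoters held such letters. The AP-1 letters were present in 3.69% of promoters of the genes studied and in 6.36% of all promoters, and the paired heat shock units, which Hspb1 holds at 2 places, in 4.21% and 7.02%. The STAT letters of Tnfrsf12a were present in 5.63% and 7.52%. Of the 29 genes that passed the FDR or had the largest changes 24 had a promoter in the table, and a match describes the sequence only.

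Over the 81 higher genes with a promoter, AP-1 letters stood in 8 (9.88%), the cAMP response element in 1 (1.23%), the STAT element in 3 (3.70%), the paired heat shock units in 4 (4.94%) and the core of the serum response element in 3 (3.70%, beside 1.11% of the genes studied and 1.5% of all promoters). A TATA box (TATAAA) stood in 13 of the 81 (16%), beside 5.58% of the genes studied and 13.1% of all promoters.

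Immediate early transcription factors, which are transcribed without new protein synthesis, were described by 14 genes, of which 6 were higher and 1 was lower. For this and the following lists the background is 1.12% higher and 0.178% lower genes and 4663 of 9570 genes with a difference above 0. Fos and Junb had IC means under 5 TPM and entered only through their EV values. Besides Fos, Junb had 5.34, 4.72 and 4.85 TPM in IC and 15.4, 13.1 and 14.2 TPM in EV (1.34 ± 0.18, limma adjusted p = 0.0648), and Egr1 had 13.0, 11.8 and 9.94 TPM in IC and 24.0, 24.0 and 23.7 TPM in EV (0.98 ± 0.15, limma adjusted p = 0.0969). In both genes the libraries of a group lay close together. Ier5, Klf10 and Myc were also higher, by 0.79, 0.61 and 0.60. Jun, the usual partner of Fos, had a log2 difference of 0.41 and did not meet the criterion, and Jund, the most abundant of the list, had -0.22. The median of the list was 0.38, against -0.0056 for all names tested, and the higher count fell to 3 without IC library 3 or without EV library 2.

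The ERK cascade is damped by inhibitors and phosphatases that it induces itself. Of 16 genes of this feedback group 8 were higher, 0 were lower, and 15 had a difference above 0, with a median of 0.61 (beside 1.12% higher genes and 4663 of 9570 above 0 among all genes studied). Spry4, an inhibitor upstream of Raf, had 5.26, 4.14 and 6.27 TPM in IC and 9.23, 18.6 and 20.7 TPM in EV (1.40 ± 0.32, limma adjusted p = 0.442). Dusp6, a phosphatase specific for ERK, had 8.84, 8.05 and 8.54 TPM in IC and 15.6, 20.2 and 20.3 TPM in EV (1.04 ± 0.17, limma adjusted p = 0.136). The controls of Dusp6 differed by less than 1 TPM, and EV library 1 was the lowest of the vesicle group in both genes. Etv5, an ETS factor downstream of ERK, had 23.4, 30.3 and 28.6 TPM in IC and 45.4, 52.6 and 46.4 TPM in EV (0.78 ± 0.17, limma adjusted p = 0.330). Dusp4, Dusp14, Spred3, Phlda1 and Ccnd1 were the other higher genes, and Spry2 (0.56) did not reach the fold change. Of the 8, Dusp14 had an IC mean under 5 TPM and entered only through its EV values. Dusp1, a phosphatase of the stress kinases, had 9.47, 10.0 and 7.76 TPM in IC and 8.96, 7.54 and 8.05 TPM in EV.

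For gp130 and STAT3 signalling, 15 genes were measured and 3 were higher (Stat3, Cebpd and Osmr), with a median of 0.20. With single libraries left out, 2 to 4 were higher and the median was 0.09 (without EV library 3) to 0.44 (without EV library 1). The shared receptor subunit Il6st had 24.2, 15.8 and 28.8 TPM in IC and 17.3, 31.1 and 35.1 TPM in EV, and the ciliary neurotrophic factor receptor Cntfr had 51.4, 49.0 and 41.9 TPM in IC and 40.1, 43.4 and 38.5 TPM in EV. Neither met the criterion. Osmr and Cebpd had IC means under 5 TPM and entered only through their EV values, so the count of this list is partly fixed by the rule on level. Ptpn11, the phosphatase Shp2 that links gp130 to ERK, was the most abundant of the list at 68.9 ± 4.04 TPM in IC and 76.0 ± 8.83 TPM in EV (SD, n = 3).

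Of 17 genes of NF-kB signalling 3 were higher, namely Tnfrsf12a, the tumour necrosis factor receptor Tnfrsf1a and its kinase partner Ripk1, and the median was 0.14. Tnfrsf12a had an IC mean under 5 TPM and entered only through its EV values, so this count is partly fixed by the rule on level. The higher count was 2 without IC library 1, IC library 3 or EV library 2. Tnfrsf1a had 16.4, 15.8 and 12.6 TPM in IC and 41.0, 40.9 and 30.1 TPM in EV (1.26 ± 0.17, limma adjusted p = 0.0718). The NF-kB subunits Rela and Nfkb1 had log2 differences of 0.52 and 0.34 and did not meet the criterion, and Birc2 was level at 32.8 ± 2.28 and 33.1 ± 3.24 TPM. Among 13 chemokines, cytokines and their receptors 3 were higher (Ccl2, Il1rap and Csf1), all with IC means under 5 TPM. Without EV library 2 or EV library 3, Il1rap and Csf1 did not meet the criterion and Ccl2 fell under the filter and was not tested. Of 35 genes on that list 16 were under 1 TPM on average and 7 were listed at 0 in all 6 libraries. Of 7 genes of the interferon response 2 were higher, and 1 was when any library but EV library 1 was left out or with a pseudocount of 5, where Irf2 did not meet the criterion. Ifitm3, which restricts virus entry and entered only through its EV values, had 1.42, 2.69 and 2.73 TPM in IC and 10.1, 9.76 and 9.28 TPM in EV (1.72 ± 0.25, limma adjusted p = 0.0805), Irf2 had a difference of 0.63, and B2m, the light chain of class I molecules, had 110 ± 38.8 and 111 ± 32.4 TPM.

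Genes of the cell surface and of matrix turnover are known to be raised by cells at wound edges. Of 20 such genes 8 were higher and 0 were lower (beside 1.12% and 0.178% of all genes studied), with a median of 0.29, and 3 of them (Cd44, Timp1 and Spp1) had passed the FDR. Of the 8, Cd44, Spp1, Lgals3 and Anxa2 had IC means under 5 TPM and entered through their EV values. Pdpn, a surface glycoprotein, had 49.1, 56.1 and 38.1 TPM in IC and 117, 146 and 105 TPM in EV (1.33 ± 0.17, limma adjusted p = 0.0603). Anxa2, a membrane-binding annexin, had 2.72, 3.57 and 1.01 TPM in IC and 8.87, 13.2 and 9.01 TPM in EV, and its partner S100a10 had 44.5, 84.9 and 60.0 TPM in IC and 121, 134 and 101 TPM in EV. Each EV library exceeded each control in these genes. Timp2, the most abundant gene of the list and a relative of Timp1, was level at 233 ± 9.70 TPM in IC and 232 ± 10.8 TPM in EV, with a 95% interval of -0.30 to 0.28. Over alternatives, 7 to 9 genes of the list were higher.

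The list of reactive astrocyte genes had 30 entries, of which 9 were among the genes studied and 13 were under 1 TPM on average. Of these 9, 8 were higher (Cd44, Timp1, Hspb1, Osmr, S1pr3, Gfap, S100a10 and Vim), with a median of 2.20, and Ptx3 did not meet the criterion. With single libraries left out, the median ran from 1.44 (without EV library 2) to 2.41 (without IC library 2). Cd44, Hspb1 and Osmr had IC means under 5 TPM and entered only through their EV values, so the count and the median are partly fixed by the rule on level. Gfap, the intermediate filament protein of astrocytes, had 85.1, 361 and 128 TPM in IC and 491, 617 and 362 TPM in EV, and its highest control was only just under its lowest EV library (1.58 ± 0.51, limma adjusted p = 0.9997). Without EV library 2, Gfap did not meet the criterion. Vim had 107, 196 and 101 TPM in IC and 196, 328 and 221 TPM in EV, where IC library 2 and EV library 1 met. The higher count was 4 without EV library 2 and 6 without EV library 1, where Hspb1 and Osmr fell under the filter and were not tested. None of the other astrocyte markers met the criterion. Glul, the glutamine synthetase, had 648, 419 and 465 TPM in IC and 486, 531 and 472 TPM in EV, and Aldoc had 333, 391 and 218 TPM in IC and 349, 231 and 178 TPM in EV.

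Of 29 genes of the actin cytoskeleton and of SRF or YAP targets, 27 had a difference above 0 (beside 4663 of all 9570 genes studied), 7 were higher and 10 had an interval inside 1.5-fold, with a median of 0.27. Cnn2, a calponin, had 13.3, 10.4 and 9.83 TPM in IC and 23.8, 27.5 and 38.2 TPM in EV (1.32 ± 0.22, limma adjusted p = 0.124), and Arpc1b, a subunit of the Arp2/3 complex that branches actin, had 1.69, 3.66 and 3.81 TPM in IC and 8.12, 10.7 and 8.61 TPM in EV (1.35 ± 0.29, limma adjusted p = 0.341). Lmna, Vim, Myl12a and Amotl1 were the others besides Tagln2. Of the 7, Arpc1b had an IC mean under 5 TPM and entered only through its EV values. The count was 4 without IC library 3 or without EV library 2. The actins themselves were level. Actb had 2659, 2593 and 2496 TPM in IC and 2487, 2637 and 2794 TPM in EV.

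The adhesion, matrix and tubulin lists had 1 higher gene each, beside a background of 1.12%, and nothing is read from counts of 1. Among 27 integrin and focal adhesion genes only Vcl, which couples integrins to actin, was higher (0.80 ± 0.26, limma adjusted p = 0.9997), and its EV library 1 of 10.7 TPM lay within the IC range of 7.16 to 10.9 TPM. Without EV library 2 no gene of that list was higher. Among 15 matrix genes only Lamc1, a laminin chain, was higher, with 9.91, 7.96 and 8.66 TPM in IC and 12.4, 23.9 and 19.8 TPM in EV. Among 31 tubulin, neurofilament and related genes only Tubb6 was higher, with 11.4, 17.4 and 8.97 TPM in IC and 36.6, 71.4 and 44.9 TPM in EV (1.92 ± 0.29, limma adjusted p = 0.0962). In contrast, the neuronal tubulin Tubb3 had 1432, 1576 and 1241 TPM in IC and 1556, 1182 and 1327 TPM in EV. The difference between Tubb6 and the other tubulins was not tested, and tubulin genes share sequence that the quantification may have divided between them.

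Stress genes were mixed. Of 26 heat shock genes and chaperones 2 were higher (Hspb1 and Bag3, both with IC means under 5 TPM, so that they entered only through their EV values) and 19 had an interval inside 1.5-fold, among them the cytosolic Hsp90ab1 at 1598, 2045 and 1476 TPM in IC and 2103, 1670 and 1497 TPM in EV. With any 1 EV library left out, Hspb1 fell under the filter and 1 gene of this list was higher. Without EV library 1, another gene was lower. Of 32 NRF2 and antioxidant genes 2 were higher, with 1 without IC library 3, where Mt2A did not meet the criterion, 3 without IC library 1 and 4 without EV library 1. Hmox1, which degrades haem, had 11.96, 19.9 and 13.8 TPM in IC and 40.8, 52.2 and 42.9 TPM in EV (1.53 ± 0.22, limma adjusted p = 0.0748), and the metallothionein Mt2A had 237, 306 and 165 TPM in IC and 599, 379 and 340 TPM in EV (0.88 ± 0.29, limma adjusted p = 0.9997). The median of that list was 1.04e-05 (-0.12 to 0.24 with single libraries left out), and the ferritin gene Fth1 had 1426, 2064 and 1200 TPM in IC and 1729, 1485 and 1348 TPM in EV. Of 28 genes of the unfolded protein and integrated stress response 0 were higher and 1 (Ddit4) was lower, a call that 7 of the alternatives did not repeat.

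Growth and cell cycle genes held a few higher members. Ccnd1, the cyclin that drives entry into the cycle, had 25.9, 40.4 and 24.6 TPM in IC and 60.0, 88.6 and 65.7 TPM in EV (1.22 ± 0.23, limma adjusted p = 0.198), and its kinase Cdk6 had 3.24, 3.56 and 4.05 TPM in IC and 4.91, 8.28 and 7.85 TPM in EV. These were the 2 higher genes of 34 on the cell cycle list, whose median was 0.06 (-0.12 to 0.27 with single libraries left out), and 1 was higher without IC library 1, EV library 2 or EV library 3. Cdk6 had an IC mean under 5 TPM and entered only through its EV values. Cdk4 had 158, 236 and 147 TPM in IC and 176, 195 and 133 TPM in EV. Hmga1, a chromatin architectural protein, had 69.2, 89.1 and 70.9 TPM in IC and 148, 155 and 112 TPM in EV (0.83 ± 0.18, limma adjusted p = 0.324), and Myc had 22.8, 18.3 and 17.3 TPM in IC and 26.2, 33.8 and 30.3 TPM in EV (0.60 ± 0.15, limma adjusted p = 0.701). Myc did not meet the criterion with a pseudocount of 5 or without IC library 3, EV library 2 or EV library 3. Of 24 growth factor, ErbB and neurotrophin genes Hbegf alone was higher (2 genes were without IC library 2 or EV library 3), with 12.4, 11.1 and 11.2 TPM in IC and 18.1, 24.4 and 24.0 TPM in EV. Of 29 genes of glycolysis and hypoxia Pfkfb3 alone was higher (2 genes were without IC library 2), with 31.6, 21.1 and 24.8 TPM in IC and 43.7, 59.9 and 53.0 TPM in EV (0.98 ± 0.18, limma adjusted p = 0.192). Without EV library 1, 2 genes of this list were lower. Pfkfb3 makes the activator of phosphofructokinase, while the enzymes of the pathway itself, such as Gapdh at 1422, 1827 and 1304 TPM in IC and 1575, 1464 and 1458 TPM in EV, did not meet the criterion.

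**Figure D3:**
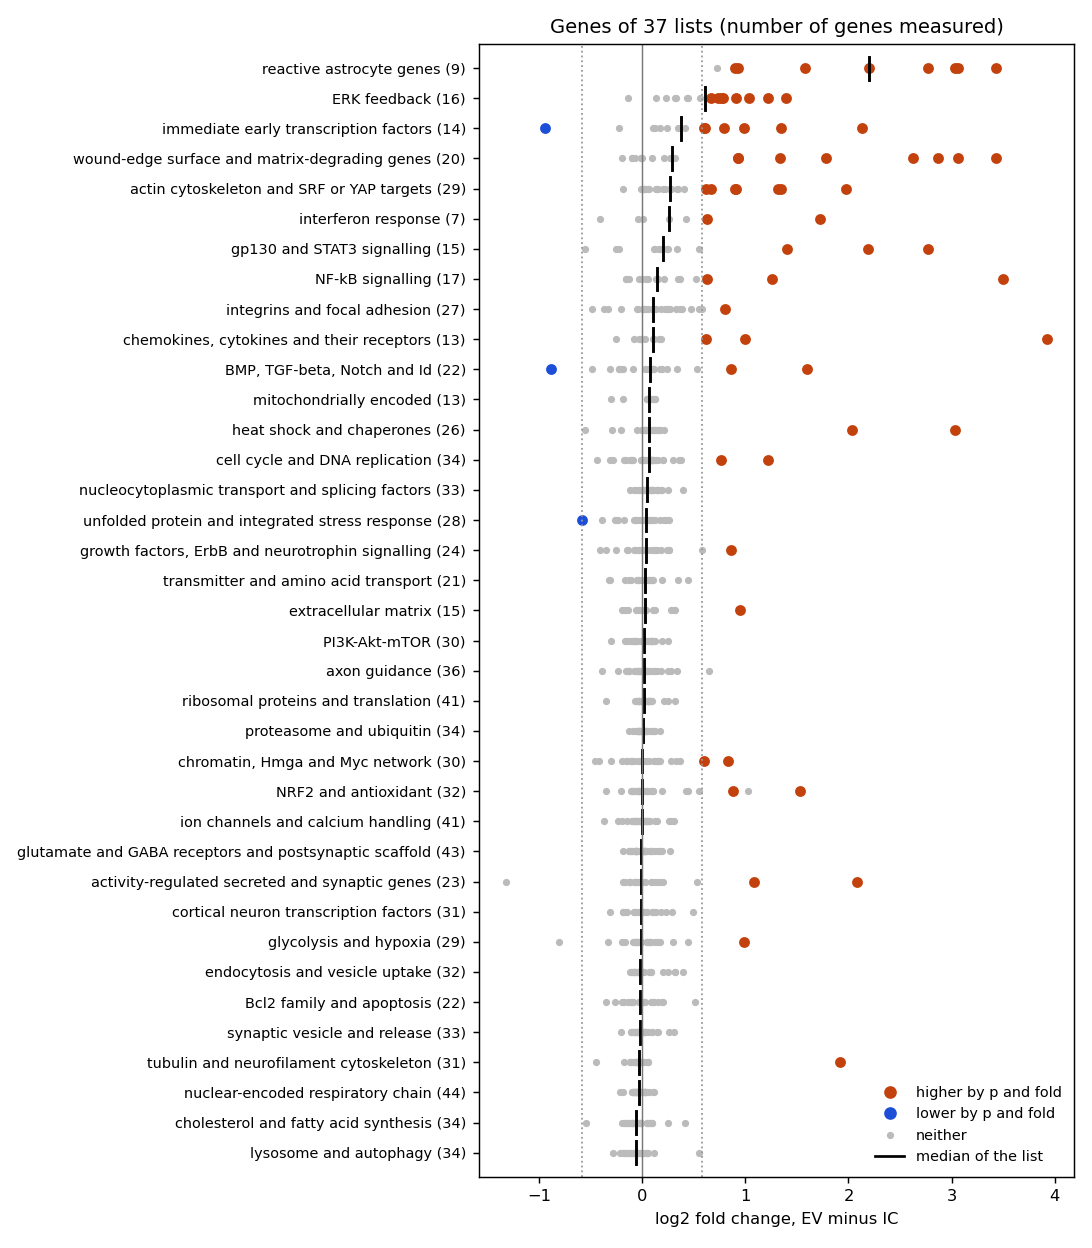
Each point is a gene of 1 of 37 functional lists, placed by its log2 fold change (EV minus IC), with the number of genes measured in brackets, the median of each list as a black tick and dotted lines at a fold change of 1.5. The lists of reactive astrocytes, ERK feedback and wound-edge genes hold 8 higher genes each, with some genes in more than 1 list, while synaptic, ion channel, respiratory chain, proteasome and splicing lists lie close to 0.

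Of 22 genes of BMP, TGF-beta, Notch and Id signalling 2 were higher (Id1 and Id3) and 1 was lower, and none passed the FDR. With single libraries left out, 1 to 3 were higher and 1 or 2 lower. Id1, which blocks basic helix-loop-helix factors downstream of BMP, had 8.63, 5.45 and 3.70 TPM in IC and 27.2, 17.9 and 14.3 TPM in EV (1.598 ± 0.32, limma adjusted p = 0.253). Id3 was higher by 0.87 with overlapping libraries, and it did not meet the criterion with TPM as deposited, a pseudocount of 5, no filter or the filter on the mean. Id2, the most abundant of the family, was level at 135 ± 11.3 and 142 ± 3.80 TPM, and Id4 had 34.8, 32.2 and 23.5 TPM in IC and 18.2, 26.4 and 19.7 TPM in EV (-0.48, unadjusted p = 0.0336 in limma). Hes5, a target of Notch in progenitors and astrocytes, was the lower gene of this list, and it did not meet the criterion with a pseudocount of 5 or in the fit of all 12 libraries.

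Lower genes were few, and none passed the FDR. Of the 17, 13 had EV libraries that all lay under all IC libraries. With a pseudocount of 5 the count was 6, with 5 of the 17 among them, and Rgma, Hes5, Nim1k, Zfp113, Rnf122, Ilvbl, Gdpd2, Fam210b and Plcd4 then missed the fold change, at -0.57 to -0.40. Rgma, a guidance molecule that also acts as a BMP co-receptor, had 43.3, 40.4 and 36.2 TPM in IC and 24.2, 27.1 and 25.1 TPM in EV (-0.64 ± 0.13, limma adjusted p = 0.266). Slc9a3r1, the membrane scaffold NHERF1, had 26.6, 32.5 and 21.4 TPM in IC and 12.7, 14.0 and 14.0 TPM in EV (-0.93 ± 0.18, limma adjusted p = 0.228). The EV libraries of both genes lay close together and clearly below the controls. Ppap2b, a phosphatase of bioactive lipids at the cell surface, had 76.1, 50.4 and 49.7 TPM in IC and 36.3, 38.5 and 34.8 TPM in EV (-0.65 ± 0.17, limma adjusted p = 0.702), and it missed the fold change without IC library 1.

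Btg2, an antiproliferative cofactor that is itself an early response gene, had 18.6, 31.9 and 18.5 TPM in IC and 10.5, 15.5 and 8.63 TPM in EV (-0.94 ± 0.28, limma adjusted p = 0.976). It was the only lower gene of the 14 on the immediate early list. Its promoter is shown because it holds the same cAMP response element (capitals, beginning 201 bases before the start) as that of Vgf, which rose.
Btg2: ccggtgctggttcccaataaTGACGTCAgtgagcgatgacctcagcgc
Hes5 had 7.09, 6.72 and 8.52 TPM in IC and 4.96, 2.71 and 3.31 TPM in EV (-0.89 ± 0.26, limma adjusted p = 0.955). RGD1560398 had 11.9, 17.7 and 5.72 TPM in IC and 2.96 TPM in EV library 1, and it was listed at 0 in EV libraries 2 and 3 (limma adjusted p = 0.324). Since these zeros can be failed estimates, no mean or fold change is given for it.

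The remaining non-overlapping lower genes were Nim1k, a kinase related to AMPK, with 11.8, 15.6 and 10.9 TPM in IC and 7.35, 7.78 and 6.60 TPM in EV (-0.74 ± 0.19, limma adjusted p = 0.704), and Zfp113, Rnf122, Ilvbl, Gdpd2, Fam210b and Plcd4, with differences of -0.71, -0.71, -0.69, -0.66, -0.62 and -0.61. All of these had means under 13 TPM in both groups, and Zfp113, Rnf122, Ilvbl, Gdpd2, Fam210b and Plcd4 also missed the criterion without at least 1 of the single libraries. Another 4 genes met the criterion with overlapping libraries, namely Acss1 (-0.81), Ccpg1os (-0.68), Klhl25 (-0.62) and Ddit4 (-0.59). Ddit4, a stress-induced inhibitor of mTORC1, was the most abundant lower gene, with 70.1, 69.2 and 46.2 TPM in IC and 47.4, 41.2 and 33.6 TPM in EV (limma adjusted p = 0.9997). It met the criterion neither with TPM as deposited, a pseudocount of 5 or a fit of all 12 libraries nor without IC library 1, IC library 2, EV library 2 or EV library 3, with differences of -0.58 to -0.48. The sestrins Sesn1 and Sesn2, which act on the same kinase, had differences of -0.35 and -0.38 and did not meet the criterion, although in both genes all EV libraries lay under all IC libraries. Of the 15 lower genes with a promoter, AP-1 letters stood in 3 (20%, beside 3.69% of the genes studied with a promoter and 6.36% of all promoters) and a TATA box in 0 (beside 5.58% and 13.1%), and with 15 promoters little can be read from either count. The paired heat shock units shown for Bag3 and Hspb1 also stood in 1 lower gene, RGD1560398 (6.67%, beside 4.21% and 7.02%).

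**Figure D4:**
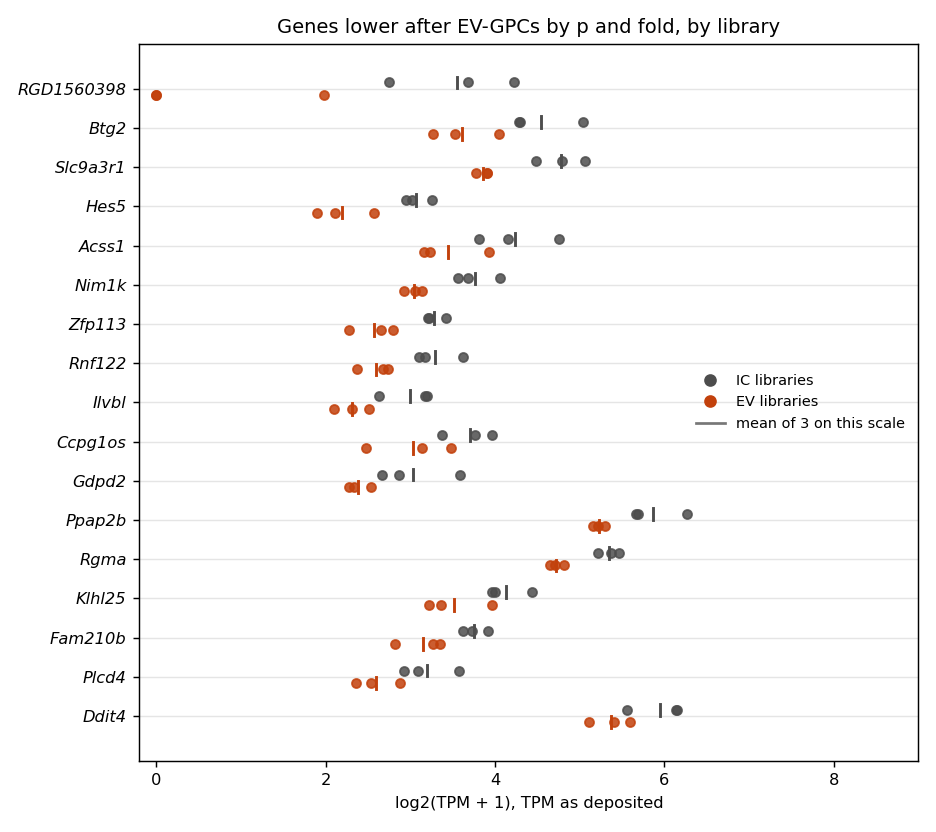
Points are single libraries of IC (grey) and EV (orange) on a log2(TPM + 1) scale for the 17 genes lower by an unadjusted p under 0.05 and a fold change over 1.5, with ticks at the mean of 3 libraries where none is listed at 0. In 13 genes the groups do not overlap, RGD1560398 has 2 EV libraries at 0, and the differences of the others are under 1 on the log2 scale.

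Some genes had lower values that did not reach the fold change. Srebf1, a regulator of lipid synthesis, had 19.0, 22.2 and 17.9 TPM in IC and 13.1, 13.9 and 12.6 TPM in EV (-0.54 ± 0.16, limma adjusted p = 0.924). Msmo1, an enzyme of cholesterol synthesis, had 133, 149 and 143 TPM in IC and 158, 212 and 208 TPM in EV (0.42 ± 0.16, limma adjusted p = 0.9997). The groups did not overlap in either gene, in opposite directions, and of the 34 cholesterol and fatty acid genes 0 met the criterion and 16 had an interval inside 1.5-fold. Mxi1, an antagonist of Myc, had 47.0, 42.0 and 37.7 TPM in IC and 28.3, 36.0 and 30.6 TPM in EV (-0.42 ± 0.14, limma adjusted p = 0.9997).

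Many well-expressed genes stayed flat. Flat is used here for a gene whose 95% interval of the log2 fold change, from the same limma fit, lay wholly inside 1.5-fold in both directions, which was the case for 4062 of the 9570 genes (42.4%, beside 34% or 4330 of all names tested). Among genes of at least 100 TPM it was 733 of 1288. A further 5384 genes were neither flat nor past the criterion, so their data allow a change of that size without showing one. The flat count was 1910 to 2199 without IC library 1, IC library 3, EV library 2 or EV library 3, and 7654 with the ribosomal protein share as a covariate.

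Flat genes of the highest level were Eef1a1, Actb, Actg1, Cfl1, Tuba1b, Ywhaz, Hsp90ab1, Tpt1, Ptma, Rtn1, Ywhae, Gapdh, Gap43, Stmn2, Tubb3, Tubb2a, Dpysl3, Mapt and Atp5b. They include translation, actin, adaptor and chaperone genes found in every cell, together with proteins of growing neurites such as Gap43, Stmn2 and Dpysl3. Eef1a1, the elongation factor of translation, had 3407, 3443 and 3183 TPM in IC and 3226, 3242 and 3429 TPM in EV, with an interval of -0.50 to 0.44. Ywhaz, an adaptor of the 14-3-3 family, had 1834, 1726 and 1803 TPM in IC and 1723, 1817 and 1818 TPM in EV, with an interval of -0.42 to 0.39. Gap43 had 1438, 1675 and 1294 TPM in IC and 1786, 1356 and 1277 TPM in EV, with an interval of -0.51 to 0.49. In Gap43, Mapt and Atp5b, the libraries with the high ribosomal protein share, IC library 2 and EV library 1, were the highest of their groups.

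**Figure D5:**
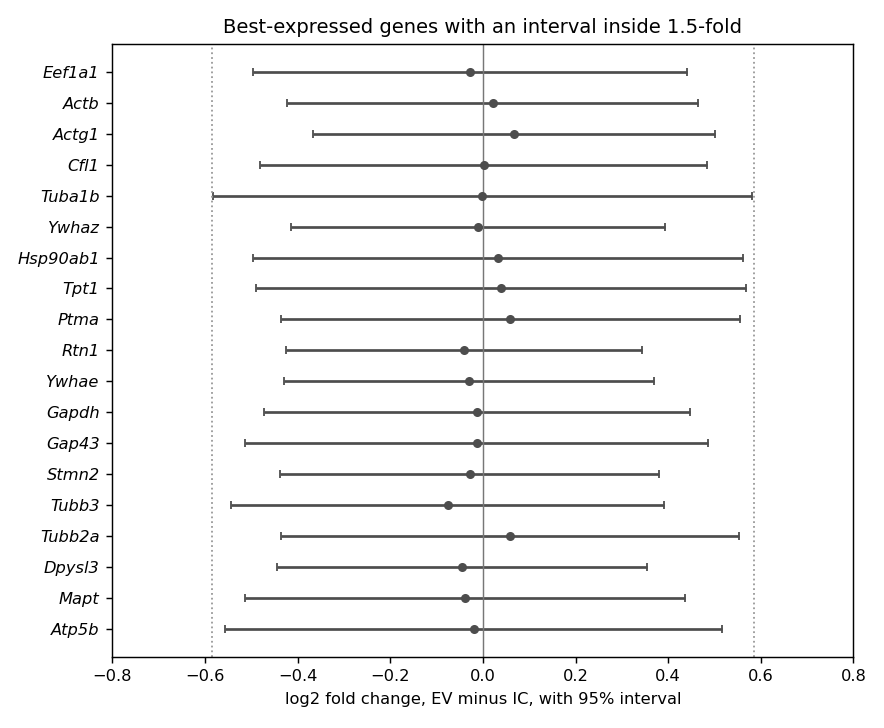
Points are the log2 fold changes (EV minus IC) of 19 genes of the highest mean TPM whose 95% interval (bars, limma) lies between the dotted lines at a fold change of 1.5. All 19 estimates lie between -0.08 and 0.07.

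No gene of the synaptic, receptor and ion channel lists met the criterion, which for lists of this size is near the background of 1.12% higher and 0.178% lower genes. Of 33 genes of synaptic vesicles and release 0 met the criterion in either direction and 19 were flat, with a median of -0.02, and the vesicle protein Vamp2 had 639, 660 and 585 TPM in IC and 707, 627 and 592 TPM in EV. Of 43 glutamate and GABA receptor and postsynaptic genes 0 met the criterion and 17 were flat, with a median of -0.01 and differences from -0.19 to 0.27. The kinase gene Camk2a had 105, 91.1 and 103 TPM in IC and 85.1, 86.0 and 107 TPM in EV. Of 41 ion channel and calcium handling genes 0 met the criterion and 18 were flat. Of 31 transcription factors of cortical neurons 0 met it, with Mef2c at 363, 277 and 469 TPM in IC and 224, 408 and 508 TPM in EV, and of 36 axon guidance genes 0 met it. Without EV library 1, 1 receptor or postsynaptic gene and 1 axon guidance gene were higher, as was 1 axon guidance gene without IC library 3, and the medians of these lists changed sign with single libraries left out.

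Of 23 activity-regulated genes 2 were higher (Vgf and Nptx2) and 8 were flat, with a median of -0.01. The lowest difference of the list was that of the neuropeptide gene Npy (-1.32 ± 1.40, limma adjusted p = 0.9997), which was listed at 0 in IC library 3 and in EV libraries 1 and 3. Nptx2, a pentraxin that gathers glutamate receptors, had 7.59, 6.52 and 5.50 TPM in IC and 12.5, 18.5 and 14.6 TPM in EV (1.09 ± 0.19, limma adjusted p = 0.161). Carboxypeptidase E (Cpe), which processes neuropeptides, had 610, 675 and 536 TPM in IC and 652, 568 and 553 TPM in EV.

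In the housekeeping lists no gene met the criterion, beside 1.12% higher and 0.178% lower among all genes studied, so counts of 0 are near that background, and the flat counts stand beside the 42.4% of all genes studied. The criterion was met by 0 of 44 nuclear genes of the respiratory chain (16 flat, median -0.03), 0 of 13 mitochondrially encoded genes (0 flat), 0 of 41 ribosomal protein and translation genes (6 flat), 0 of 34 proteasome and ubiquitin genes (24 flat), 0 of 34 lysosome and autophagy genes (24 flat), 0 of 32 endocytosis genes (16 flat), 0 of 33 nuclear transport and splicing genes (23 flat) and 0 of 30 genes of PI3K, Akt and mTOR (12 flat). Mitochondrially encoded genes spread widely between libraries. The 13 genes summed to 45168 TPM in IC library 2 and 52405 TPM in EV library 1, and to 68587 to 77919 TPM in the other 4 libraries. Their intervals reached well past 1.5-fold, as in Mt-nd5, at 1190, 698 and 1384 TPM in IC and 369, 1302 and 1652 TPM in EV. Among lysosomal genes 6 of 34 had a difference above 0 (beside 4663 of all 9570), with a median of -0.06 that became 0.03 without IC library 2, where 1 gene was higher. The tetraspanin Cd63, a common marker of extracellular vesicles, had 152, 229 and 96.5 TPM in IC and 296, 211 and 175 TPM in EV (0.55 ± 0.32, limma adjusted p = 0.9997). Of 22 genes of the Bcl2 family and apoptosis 0 met the criterion and 6 were flat. Of 21 transmitter and amino acid transporter genes 0 met it and 8 were flat. Without EV library 1, 2 transporter genes and 1 apoptosis gene were higher, and 1 apoptosis gene was without IC library 1.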

How the data were processed

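Per the labels, mRNA of the 6 IC and EV libraries was sequenced within a series of 12. The authors used Trimmomatic and Cutadapt for trimming, Salmon for quantification on rat transcripts (Rnor_6.0) and tximport for gene totals. The deposited values sum to 1000000 per library and were taken as TPM without further scaling. Depth is unknown. The labels name a DNBSEQ instrument and pups of postnatal day 0, and the study's methods another instrument and slightly older pups. Rows of 1 name were summed, TPM was rescaled by median-of-ratios factors, and names that reached 1 TPM in 3 or more libraries were tested on log2(TPM + 1) with limma 3.58.1 in R 4.3.3 (trend, Benjamini-Hochberg adjustment over 12754 names), after a check on simulated data. Fold changes are EV minus IC on that scale, which understates changes of low genes, and printed TPM are the deposited values. With 3 against 3 libraries an exact permutation test cannot go below 0.1 and was not used. The members, the 37 functional lists and 11 marker lists (written from general knowledge) were chosen with earlier results of these data known. Genes named are all at an FDR under 0.05, up to 15 non-overlapping genes of largest change in each direction, up to 3 of lowest p and the most abundant of each list, the 20 most abundant flat genes and up to 3 markers per cell type, besides genes of small counts, and a few chosen after their values were seen, and a few genes that this rule takes are not reported here. Protein-coding genes, promoters and synonyms came from RefSeq (GRCr8), and Vgf was matched by its Entrez number.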

Additional observations from a re-analysis of the deposited data

How the results depend on the processing

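The 18 names at an FDR under 0.05 became 7 with a filter on a mean of at least 5 TPM, 59 in a fit of all 12 libraries and 67 with the ribosomal protein share as a covariate, which was chosen after seeing the data. Leaving out single libraries gave 0 to 21. The 274 names past p and fold became 132 with a pseudocount of 5 and 148 with the filter on the mean, and 221 to 443 with single libraries left out. Of the 8 genes studied at that FDR, 4 remained with no filter and with the filter on the mean. The 124 genes studied past p and fold became 81 with a pseudocount of 5 and 106 to 255 without single libraries (255 without EV library 1). The flat count of 4062 became 7654 with the covariate and 1910 to 3046 without single libraries. The cause of these shifts was not tested. TPM as deposited, a pseudocount of 0.5, no filter and no trend kept the counts of 18, 274, 124 and 4062 within 1.5-fold. Of 56 named genes past p and fold, 33 met both in every alternative and 0 reversed, while Ccl2, Hspb1 and Osmr met both in the 12 alternatives that tested them and were under the filter without any 1 of the EV libraries.

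With the replicate number as a block, 0 names passed the FDR (365 had an unadjusted p under 0.05, and 315 names and 130 of the genes studied were past p and fold). Libraries that share a number deviated from the group means with correlations of -0.08, -0.18 and 0.54, so the numbers were not taken to pair the libraries.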

Other observations

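The series also holds 3 libraries of cultures that received a protein fraction of the medium (15 µg/mL) and 3 that received the total secretome (45 µg/mL), compared with the same IC libraries. These doses differ from that of the vesicles, so the values stand side by side. Vgf (LOC100909521) had 42.0 to 54.6 TPM with EV-GPCs, 276 to 311 TPM with the proteins and 154 to 202 TPM with the total secretome. Tnfrsf12a had 22.3 to 36.4, 88.6 to 99.9 and 49.4 to 65.3 TPM in the same order, and Stat3 had 67.1 to 83.9, 60.7 to 76.2 and 67.1 to 81.0 TPM. Spp1 had 7.66 to 11.4, 5.93 to 8.55 and 6.14 to 9.92 TPM.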
